A study of Solanum lycopersicum with 95 samples.

Results

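The circadian clock genes described here are 10 genes of tomato (Solanum lycopersicum) out of the 34075 genes in the count table. The list was made by gene ID and uses no measured value, but it was proposed with earlier results of these data known. It holds LHY (Solyc10g005080), PRR9 (Solyc10g005030), PRR5 (Solyc03g081240), the TOC1-like genes Solyc06g069690 (TOC1-like 1) and Solyc03g115770 (TOC1-like 2), the GI genes Solyc04g071990 (GI 1) and Solyc12g056650 (GI 2), FKF1 (Solyc01g005300), LNK2 (Solyc01g068560) and EID1 (Solyc09g075080). The names came with the choice of genes, since the count table holds IDs only.

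The plant clock is a loop of transcription factors that repress each other in sequence through the day. In Arabidopsis, MYB factors such as LHY accumulate around dawn and repress the genes of the evening. The pseudo-response regulators (PRR9 first, then PRR5, then TOC1) repress LHY in turn from morning to night. GI and FKF1 link the clock to light signals and to the flowering pathway. Light resets this loop every day through phytochromes, which sense red and far-red light, and cryptochromes. In tomato, alleles of EID1 and LNK2 that spread with domestication slowed the clock.

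RNA was sequenced from tomato plants, cultivar Foundation, grown under red and white light with a photoperiod of 16 h. Plants of the Leaf FR treatment received additional far-red (FR) light on leaves, stem and apex, starting 4 h into a photoperiod when the second truss was 10 days past its first anthesis. Their fruits, which hung behind a curtain, and all organs of the No FR plants received none. Leaves (a leaflet from just above that truss) and fruits (its first fruit, immature green) were taken before FR (0 h) and when 6, 12, 24, 48 or 96 h had passed since its start. There were 4 plants per treatment and time point, and no plant was sampled again, so that replicates were separate plants. Each group had 4 libraries, but for the 12 h leaves of Leaf FR with 3. Samples taken at 0, 24, 48 and 96 h fell 4 h after lights on and are called morning samples here. The 6 h samples fell 10 h after lights on (afternoon) and the 12 h samples 16 h after it, just before lights off (evening). No sample was taken in darkness, and only the first day was sampled at more than 1 clock time.

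The 95 libraries (47 from leaves and 48 from fruits) held between 14769415 and 17957406 counts. The organ labels were checked with marker genes. The summed level of 3 gene IDs listed as leaf markers was 13520 to 132100 CPM (counts scaled to the size of the library) in leaf libraries and 1137 to 1950 CPM in fruit libraries. That of 4 IDs listed as fruit markers was 0.294 to 2.17 CPM in leaves and 185 to 313 CPM in fruits, and 1 listed as a ripening marker was at 0 in all 95 libraries. The tables used here do not annotate these IDs. Levels of the clock genes are given as CPM after TMM scaling over all libraries, without correction for gene length, so that levels of different genes were not compared. In whole leaflets and fruits, fewer cells of a type and less RNA per cell cannot be told apart.

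One library went against its label, and results that rest on it are given with and without it. In the library labelled leaf, No FR, 12 h, replicate 2, LHY stood at 669.8 CPM, against 4.05 to 8.49 CPM in the other 3 libraries of its group and 433 to 785 CPM in the 32 morning libraries of leaves. PRR9 was at 144 CPM (1.78 to 2.85 in the other 3, 114 to 216 in the morning) and FKF1 at 1.29 CPM (60.3 to 69.5 in the other 3, 0.613 to 4.04 in the morning). PRR5 was at 1.53 CPM, TOC1-like 2 at 9.66, GI 2 at 46.3, LNK2 at 150.4 and EID1 at 40.8. Of the 10 genes, 8 lay within the range of the 32 morning libraries and 0 within that of the 6 other evening libraries of leaves, and the other 2, TOC1-like 1 and GI 1 at 6.84 CPM each, lay below both ranges. Over 14291 other genes this library correlated best with the mean of the morning leaves of No FR at 24 h (Pearson's r = 0.965) and less with any evening group of leaves (r = 0.893). By the same measure 92 of the 95 libraries were closest to a group of their own clock time. The other exceptions were replicate 1 of the same group and replicate 1 of No FR fruits at 12 h. For the leaf library r was 0.94 with leaves under Leaf FR at 6 h and 0.928 with evening leaves. For the fruit library r was 0.988 with fruits under Leaf FR at 6 h and 0.987 with evening fruits. LHY (4.05 CPM) could not place the leaf library, since LHY was low in afternoon leaves too. Its PRR9 (2.72 CPM) and TOC1-like 2 (149 CPM) were at evening levels. The fruit library had an evening level of LHY (4.74 CPM). The library that went against its label was no copy of another one: its lowest chi-square per degree of freedom against any of the 46 other leaf libraries was 32.3. What happened to this sample cannot be told from the files.

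**Figure D1:**
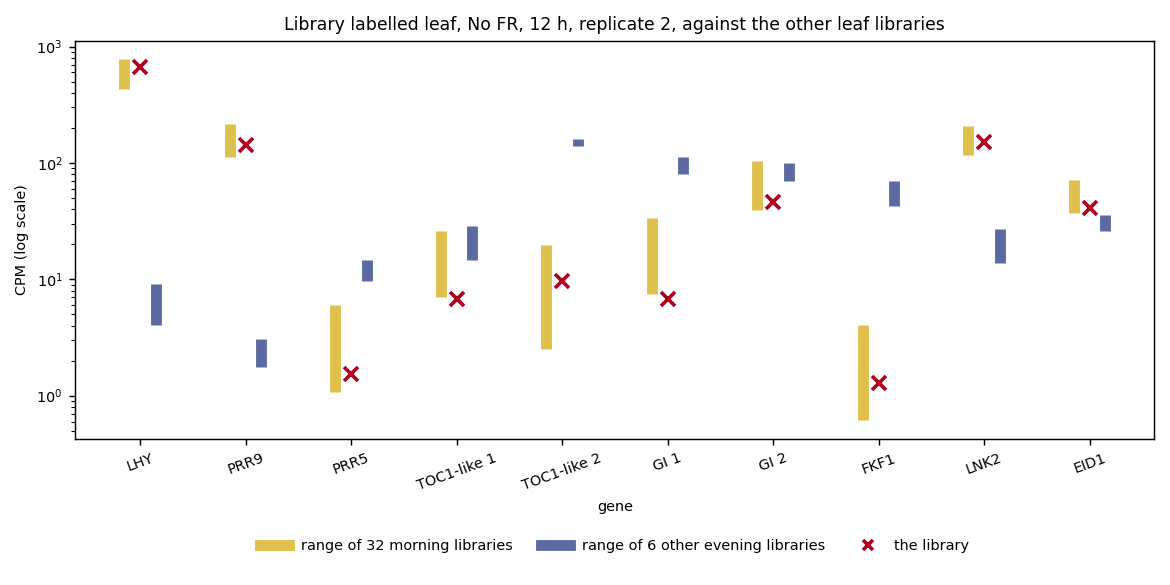
Levels of the 10 clock genes (CPM, log axis) in the library labelled leaf, No FR, 12 h, replicate 2 (crosses), beside the range of 32 morning libraries and of the 6 other evening libraries of leaves (bars). The crosses lie within the morning bar for 8 genes and in the evening bar for 0, for LHY at 669.8 CPM.

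In leaves, LHY, PRR9 and LNK2 were high in the morning and low in the afternoon and evening, PRR5, GI 1, GI 2 and FKF1 peaked in the afternoon, and TOC1-like 2 rose only towards the evening. The first question was how far the genes changed through the day within each light treatment. From morning to afternoon (6 h against 0 h), edgeR's quasi-likelihood test with Benjamini-Hochberg adjustment called 9 of the 10 genes in No FR leaves (5 up, 4 down), beside 25.5% of all genes tested, where a call is an adjusted p under 0.05. The count was again 9 (5 up, 4 down) in leaves under Leaf FR, beside 35.7% of all genes. The only gene not called, in either treatment, was TOC1-like 2. From afternoon to evening, 7 of 10 were called under Leaf FR (2 up, 5 down; 16.5% of all genes). In No FR leaves 2 of 10, PRR5 and GI 2, were called with all 4 evening libraries (3.7% of all genes) and 6 of 10 without the library that went against its label (1 up, 5 down; 4.33%). From evening to the next morning, 9 of 10 were called under Leaf FR (4 up, 5 down; 24.6% of all genes). In No FR leaves 0 of 10 were called with that library (0.0055% of all genes) and 9 of 10 without it (4 up, 5 down, beside 11.2%). With it, 7 of 10 had an unadjusted p under 0.05, beside 3039 of 18185 genes tested, and DESeq2 called 5. The share of all genes that DESeq2 called is not given. Comparisons of successive times share the libraries of the time between them.

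LHY, the dawn MYB factor, showed the widest fall of the morning genes. At 0 h it stood at 745, 433, 639.5 and 513 CPM in the No FR leaves, and at 6 h at 6.62, 8.41, 6.35 and 6.97 CPM. Every morning library lay far above every afternoon library, and the log2 fold change (Log2FC) of 6 h against 0 h was −6.33 ± 0.24 (SE, n = 4 against 4; adjusted p = 4.54e-06), a fall of 80.7-fold. Under Leaf FR the values were 634, 472, 634 and 782 CPM at 0 h and 6.43, 6.06, 7.38 and 7.58 CPM at 6 h (Log2FC −6.50 ± 0.24). In the evening LHY was still low, at 4.05, 6.44 and 8.49 CPM in the 3 remaining No FR libraries and 9.04, 6.05 and 8.74 CPM under Leaf FR. No call was made against 6 h (Log2FC 0.22 ± 0.21 under Leaf FR; −0.13 ± 0.28 in No FR without the library, 4.64 with it). By 24 h it was back at 624, 762, 590.5 and 650.1 CPM in No FR, and the rise over the night was 6.70 ± 0.36 on the log2 scale without the library (adjusted p = 1.41e-04), 1.90 with it (not called), and 6.31 ± 0.30 under Leaf FR.

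PRR9, the pseudo-response regulator that acts first in the day, fell in both steps of the day. In No FR leaves it went from 192, 115, 191 and 133 CPM at 0 h to 31.6, 28.5, 25.2 and 31.6 CPM at 6 h and 2.72, 1.78 and 2.85 CPM in the 3 remaining libraries of 12 h. The groups did not overlap at any of these steps: the Log2FC was −2.40 ± 0.20 for 6 h against 0 h (adjusted p = 8.25e-05) and −3.55 ± 0.22 for 12 h against 6 h without the library (adjusted p = 8.34e-04), but 0.40 with it. Under Leaf FR both falls were called as well (−2.77 and −2.89), and PRR9 rose overnight by 5.56 on the log2 scale. In No FR the night step was 5.99 without the library and 2.02, not called, with it. LNK2, a coactivator that works with MYB factors of the LHY family, was at 177, 122, 159.6 and 118 CPM at 0 h and 27.0, 29.9, 20.1 and 36.3 CPM at 6 h in No FR leaves. It fell in the afternoon (Log2FC −2.32 ± 0.22; −2.77 ± 0.21 under Leaf FR) and then stayed low, with no call between 6 and 12 h (Log2FC −0.04 under Leaf FR and −0.38 in No FR without the library, 0.95 with it). Overnight LNK2 rose under Leaf FR (Log2FC 2.92) and in No FR without the library (3.03, adjusted p = 0.00117), whereas with it the step was 1.67 and not called (0.287). EID1, which encodes an F-box protein of phytochrome A signalling in Arabidopsis, moved least of the genes that were high in the morning, from 47.0, 42.2, 44.0 and 37.0 CPM at 0 h to 18.8, 20.1, 20.7 and 18.1 CPM at 6 h (Log2FC −1.11 ± 0.12). Unlike the other 3, it rose again before lights off under Leaf FR, to 34.7, 33.1 and 35.5 CPM (Log2FC against 6 h 0.82 ± 0.12, adjusted p = 0.00435). In No FR the same step was 0.56 ± 0.14 without the library (adjusted p = 0.076) and 0.72 ± 0.17 with it (0.0618), neither called. With the library kept, EID1 passed without replicate 1 of 12 h (adjusted p = 0.0438).

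FKF1, which encodes a blue-light receptor and F-box protein that removes repressors of flowering, had the largest rise of the 10 genes. It was at 2.69, 1.77, 1.34 and 1.6 CPM in the morning and 317, 354, 291 and 356 CPM in the afternoon in No FR leaves, a rise of 181-fold (Log2FC 7.50 ± 0.26, adjusted p = 3.25e-06). Under Leaf FR it went from 1.17, 1.66, 1.25 and 1.03 to 180.1, 366, 287 and 330.1 CPM, so that 1 afternoon library (replicate 1) lay well below the other 3, and yet far above every morning library. By evening it had fallen to 62.2, 60.3 and 69.5 CPM in the 3 remaining No FR libraries and 42.3, 59.0 and 59.4 CPM under Leaf FR (Log2FC −2.33 without the library, −2.75 with it, and −2.44 under Leaf FR). PRR5, the regulator that follows PRR9 through the day, behaved alike: 2.04, 2.44, 1.59 and 1.94 CPM in the morning and 137, 153, 116 and 179 CPM in the afternoon (Log2FC 6.20 ± 0.22), then 14.1, 12.4 and 14.6 CPM in the evening. Its evening fall was called with the library (Log2FC −3.75 ± 0.59, adjusted p = 0.0183) and without it (−3.39 ± 0.20, 8.25e-04). With the library kept, leaving out replicate 1, 3 or 4 of 6 h or replicate 3 of 12 h took that call away (adjusted p 0.0501 to 0.0645).

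The GI genes, whose Arabidopsis counterpart works with FKF1 and stabilizes clock proteins, both peaked in the afternoon. GI 1 stood at 12.9, 13.1, 10.1 and 15.6 CPM in the morning, 263, 238, 242 and 267 CPM in the afternoon and 113, 91.7 and 106 CPM in the evening (3 libraries) in No FR leaves. GI 2 went from 71.0, 49.0, 51.1 and 49.7 CPM in the morning to 319, 328, 311 and 356 CPM in the afternoon and 91.7, 70.6 and 99.3 CPM in the evening. None of the afternoon libraries overlapped with the morning or evening ones for either gene. The rise to the afternoon was 4.31 ± 0.17 on the log2 scale for GI 1 and 2.60 ± 0.16 for GI 2, both called. The fall of GI 1 to the evening was −1.26 without the library (adjusted p = 0.00833) and −1.65 with it (0.2, not called). That of GI 2 was called without it (−1.89, 0.00355) and with it (−2.07, 0.00759). Under Leaf FR the rises were 4.57 and 2.72 and the falls −1.53 and −1.99, all called. From evening to morning the Log2FC under Leaf FR was −2.45 for GI 1 and −0.54 for GI 2, and the call of GI 2 was lost without replicate 3 of 12 h or replicate 3 of 24 h (adjusted p 0.0574 and 0.0815).

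Of the TOC1-like genes, whose Arabidopsis counterpart represses LHY in the evening, only TOC1-like 2 was highest in the evening in leaves. It stood at 7.24, 9.34, 7.09 and 10.7 CPM in the morning and 6.99, 22.4, 7.04 and 13.4 CPM in the afternoon in No FR leaves, with overlapping groups and no call (Log2FC 0.55 ± 0.38, adjusted p = 0.34). In the evening it was at 149, 139 and 144 CPM in 3 libraries, and at 139, 160.3 and 155 CPM under Leaf FR, above every library of another time in leaves. The rise from 6 to 12 h was 3.57 ± 0.41 without the library (adjusted p = 0.00585), 3.17 ± 0.78 with it (0.0644) and 3.78 ± 0.21 under Leaf FR, and by 24 h the level had fallen again (Log2FC −4.19 under Leaf FR, −3.91 in No FR without the library). With it the No FR step was −3.53 and not called (adjusted p = 0.152). TOC1-like 1 went from 8.16, 16.2, 9.43 and 15.9 CPM at 0 h to 26.9, 17.7, 26.6 and 23.9 CPM at 6 h (Log2FC 0.95 ± 0.27, adjusted p = 0.0294; 0.70 ± 0.23, 0.0416 under Leaf FR). Both calls were weak: that of No FR was lost without replicate 1 or 3 of 0 h or replicate 1, 3 or 4 of 6 h (adjusted p 0.0517 to 0.0799), and that of Leaf FR without replicate 1, 3 or 4 of 0 h or replicate 1 or 3 of 6 h (0.0748 to 0.113). No later step of TOC1-like 1 was called in leaves.

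**Figure D2:**
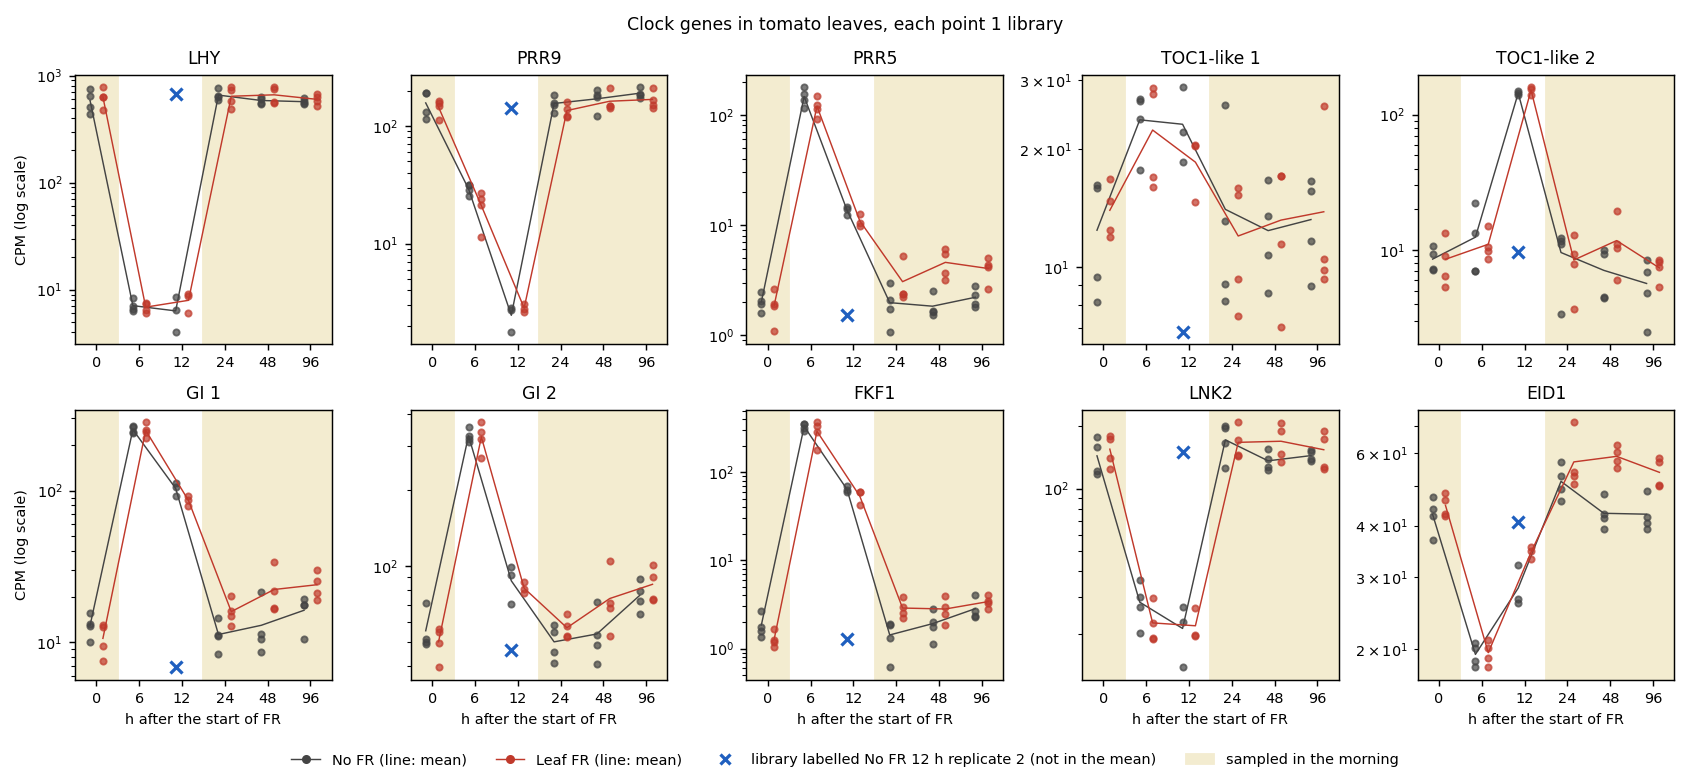
Levels of the 10 clock genes in leaves (CPM, log axis) against the hours after the start of FR, each point 1 library, grey for No FR and red for Leaf FR, with lines through the group means and shading over the times sampled in the morning. LHY fell from 433 to 745 CPM at 0 h to 6.35 to 8.41 CPM at 6 h in No FR, and the blue crosses, the library labelled No FR, 12 h, replicate 2, lie at morning levels for 8 genes.

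In fruits, which were never exposed to FR, most of the clock genes peaked at the same clock time as in leaves. LHY, PRR9 and LNK2 were highest in the morning, PRR5, GI 2 and FKF1 in the afternoon, and TOC1-like 2 in the evening, whereas TOC1-like 1 and EID1 passed the test at no step. From morning to afternoon 8 of 10 genes were called in No FR fruits (5 up, 3 down), beside 4.67% of all genes tested, and 8 of 10 in fruits of the Leaf FR plants (5 up, 3 down; 6.02%). From afternoon to evening 7 of 10 were called in each treatment (1 up, 6 down), beside 0.454% of all genes in No FR and 2.61% under Leaf FR. From evening to the next morning 8 of 10 were called in each (3 up, 5 down), beside 3.39% and 8.41% of all genes.

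LHY in No FR fruits was at 152, 137, 150.0 and 128 CPM at 0 h, 9.96, 10.8, 11.5 and 10.2 CPM at 6 h and 4.74, 5.22, 5.93 and 6.13 CPM at 12 h. It fell by 13.3-fold to the afternoon (Log2FC −3.74 ± 0.10, n = 4 against 4; adjusted p = 1.08e-08), and it fell further to the evening, by 1.93-fold (Log2FC −0.95 ± 0.12, 0.00572). Fruits of Leaf FR plants gave −3.85 and −0.79 for these steps. PRR9 was at 29.7, 26.1, 28.6 and 24.0 CPM at 0 h, 13.5, 11.2, 10.8 and 11.8 CPM at 6 h and 3.4, 3.1, 2.77 and 3.3 CPM at 12 h, with a Log2FC of −1.19 and then −1.91. For LNK2 the steps were −0.94 and −0.71. All 4 were called, so that LHY, PRR9 and LNK2 fell over both steps of the day in fruits.

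FKF1 rose in No FR fruits from 6.46, 5.97, 7.38 and 6.18 CPM to 112, 93.2, 79.7 and 108 CPM, which was 15.2-fold (Log2FC 3.92 ± 0.13, adjusted p = 6.50e-08), and the evening values were 63.0, 60.4, 59.7 and 62.8 CPM. Its fall from 6 to 12 h was small (−0.68 ± 0.11, adjusted p = 0.0211), and that call was lost without replicate 1 or 4 of 6 h or any 1 of the 4 replicates of 12 h (adjusted p 0.0593 to 0.0839). PRR5 rose from 2.8, 3.65, 3.38 and 3.79 to 41.5, 34.4, 32.5 and 42.6 CPM (Log2FC 3.48 ± 0.13) and fell to 11.7, 10.6, 11.6 and 10.8 CPM (−1.76). GI 2 rose (1.5 on the log2 scale) and then fell (−0.66). GI 1 rose to the afternoon (2.58) and was not called down before lights off. In No FR it was at 79.5, 81.1, 78.3 and 72.5 CPM in the afternoon and 102, 95.7, 92.1 and 91.4 CPM in the evening. There the evening values were all above those of the afternoon (Log2FC 0.29 ± 0.07, adjusted p = 0.185). In fruits of Leaf FR plants the times overlapped, at 74.8 to 93.4 and 90.6 to 102.9 CPM (Log2FC 0.23 ± 0.08, adjusted p = 0.184). TOC1-like 2 rose in both steps, from 15.7, 14.1, 12.5 and 11.2 to 26.9, 29.4, 28.1 and 29.7 and 61.3, 55.7, 50.7 and 57.4 CPM (Log2FC 1.09 ± 0.11 and 0.98 ± 0.08), with no overlap between the times. TOC1-like 1 lay between 7.12 and 13.2 CPM in all 48 fruit libraries. EID1 was at 17.0, 17.6, 19.3 and 19.8 CPM at 0 h and 14.7, 14.0, 13.2 and 15.8 CPM at 6 h in No FR fruits, without overlap but short of the threshold (Log2FC −0.35 ± 0.09, adjusted p = 0.0606).

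**Figure D3:**
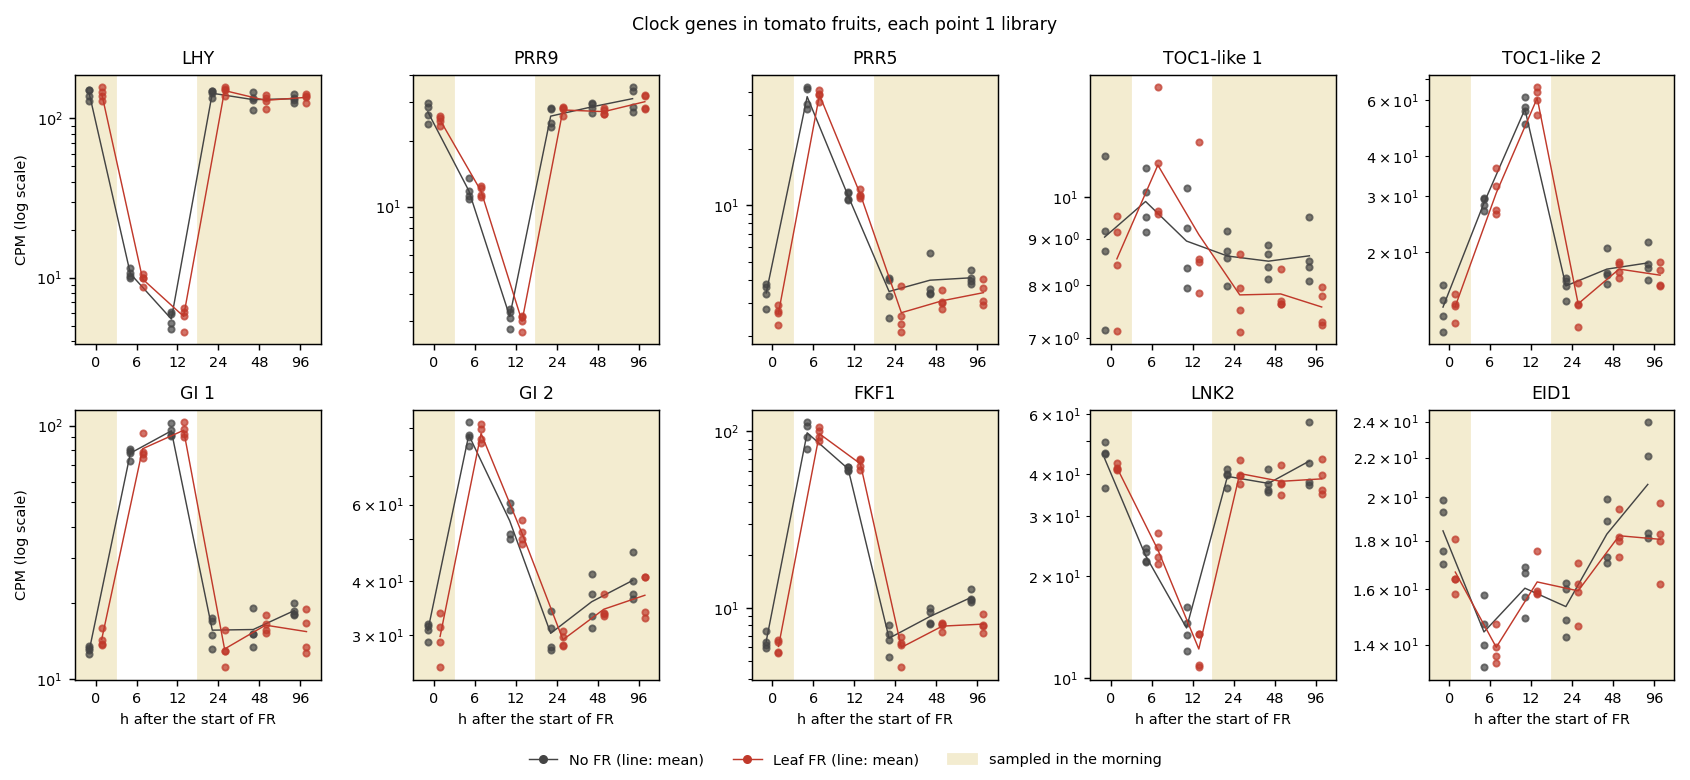
Levels of the 10 clock genes in fruits (CPM, log axis) against the hours after the start of FR, each point 1 library, grey for No FR and red for Leaf FR plants, with lines through the group means and shading over the times sampled in the morning. LHY fell from 128 to 152 CPM at 0 h to 4.74 to 6.13 CPM at 12 h in No FR, and TOC1-like 1 stayed between 7.12 and 13.2 CPM.

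The daily change was compared between organs in No FR plants, as an interaction of organ and time. From morning to afternoon, the change differed between fruits and leaves for 8 of the 10 genes (14.4% of all genes tested), and for all 8 it was smaller in fruits. The difference of the Log2FC, fruits minus leaves, was 2.65 ± 0.22 for LHY (adjusted p = 1.96e-06), 1.26 ± 0.23 for PRR9, 1.43 ± 0.24 for LNK2 and 0.80 ± 0.15 for EID1, which all fell in leaves. It was −3.54 ± 0.24 for FKF1 (adjusted p = 5.86e-07), −2.69 ± 0.23 for PRR5, −1.70 ± 0.16 for GI 1 and −1.05 ± 0.17 for GI 2, which rose. The highest of the 3 mean levels of LHY over the first day was 25.8 times the lowest in No FR fruits and 92.01 times in No FR leaves without the library (82.2 with it), and that of FKF1 15.1 times in fruits and 178 times in leaves. TOC1-like 1 missed the threshold (−0.80 ± 0.31, adjusted p = 0.0997), and it passed without replicate 2 of leaves at 0 h or replicate 2 of leaves at 6 h (adjusted p 0.0412 and 0.0465). TOC1-like 2 did not pass (0.60 ± 0.39, adjusted p = 0.365).

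The later steps turned on the 1 leaf library. From afternoon to evening 1 of 10 genes differed between organs with it (GI 2, difference 1.41 ± 0.24, adjusted p = 0.00956; 1.63% of all genes) and 6 of 10 without it (2.62%): PRR9 (1.64 without and −2.36 with the library), PRR5 (1.64 and 1.99), GI 1 (1.56 and 1.94), GI 2 (1.24 and 1.41), FKF1 (1.67 and 2.07) and TOC1-like 2 (−2.58 and −2.19). PRR9 thus turned its sign. The evening rise of TOC1-like 2 was 1.97-fold in fruits, and in leaves 11.8-fold without and 8.98-fold with the library. With that library kept, LHY (−5.64) passed without replicate 1 of leaves at 12 h (adjusted p = 0.0302), and so did PRR5 (0.0479). From evening to the next morning the counts were 0 of 10 (0.0555% of all genes) and, without the library, 6 of 10 (9.47%). With the library 1 of 10 had an unadjusted p under 0.05, beside 2628 of 19834 genes tested, and DESeq2 called 1. Here too the share of all genes that DESeq2 called is not given. The differences without and with it were −2.03 and 2.76 for LHY, −2.97 and 0.97 for PRR9, and −1.58 and −0.23 for LNK2. They were −0.96 and −0.80 for EID1, 2.03 and 1.65 for TOC1-like 2, and 2.25 and 1.85 for FKF1. LHY and PRR9 had the other sign with the library in the fit. The 3 interactions share libraries with each other, and fruit and leaf libraries can come from the same plants but were fitted as independent.

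**Figure D4:**
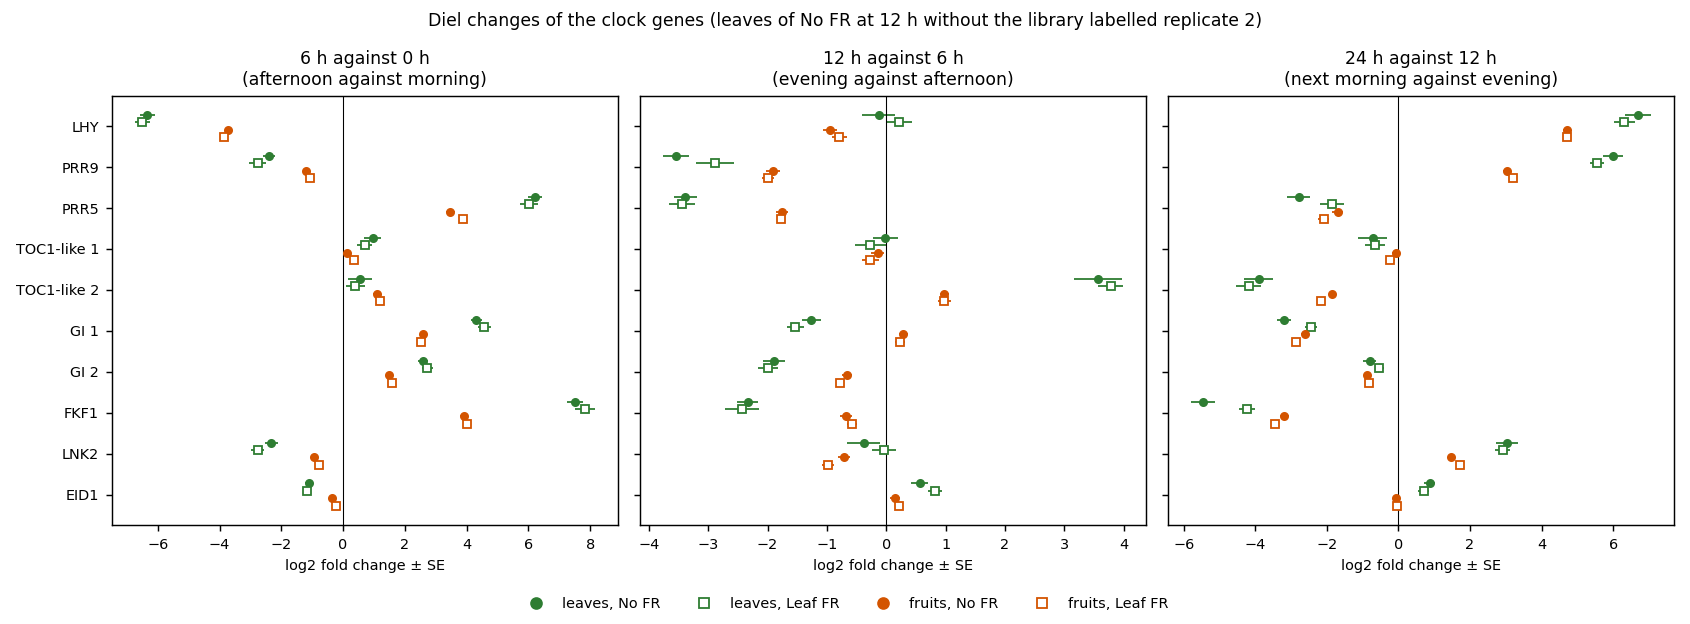
Log2 fold changes with their standard errors for each clock gene from morning to afternoon, afternoon to evening and evening to the next morning, green for leaves and orange for fruits, filled for No FR and open for Leaf FR. Leaves of No FR at 12 h are shown without the library labelled replicate 2; LHY fell by 6.33 in leaves and 3.74 in fruits of No FR in the first step.

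Levels of each gene were also set against each other between organs at 3 times in No FR plants, with leaf and fruit libraries again fitted as independent. At 0 h 8 of 10 genes differed (71.5% of all genes did), 5 lower in fruits and 3 higher. LHY (−2.0 on the log2 scale), PRR9 (−2.50), LNK2 (−1.66), EID1 (−1.17) and GI 2 (−0.81) were lower in fruits, and FKF1 (1.85), PRR5 (0.80) and TOC1-like 2 (0.67) higher. At 6 h 9 of 10 differed (71.3% of all genes), 7 lower in fruits, with PRR5 (−1.89), GI 2 (−1.86), FKF1 (−1.68) and GI 1 (−1.64) the farthest apart, and LHY (0.64) and TOC1-like 2 (1.27) higher in fruits. FKF1, PRR5 and LHY therefore changed sides between morning and afternoon. At 12 h 4 of 10 differed with the library (60.4% of all genes) and 4 of 10 without it (64.8%), all lower in fruits. Without it these were TOC1-like 1 (−1.33), TOC1-like 2 (−1.32, with it −0.93), EID1 (−0.78) and GI 2 (−0.63, with it −0.45). With it, LHY (−5.00) and LNK2 (−1.94) were called beside TOC1-like 1 (−1.06) and EID1 (−0.95), whereas without it LHY was at −0.17 and LNK2 at −0.56, neither called. PRR9 was at −3.61 with it, and passed without replicate 1, 3 or 4 of leaves (adjusted p 0.0347 to 0.0404), but at 0.39 without it. With the library kept, the calls of LHY and LNK2 were also lost without any 1 fruit library of 12 h (adjusted p up to 0.0762 and 0.0957) and that of TOC1-like 1 without any 1 of the 7 other libraries (0.0506 to 0.0751). The shares of genes that differed between organs were this large over the whole table, so that these counts do not set the clock genes apart.

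Leaf FR was compared with No FR at each time, in the leaves that received FR and in the fruits that did not. None of the 10 genes passed edgeR's test between Leaf FR and No FR at any time in either organ. Over the 60 leaf tests (10 genes at 6 times) 0 were called by edgeR, 8 had an unadjusted p under 0.05, and DESeq2 called 2. Of the 8, 2 were at 24 h, 3 at 48 h and 3 at 96 h. At these times 1208 of 17589, 1325 of 17607 and 1999 of 17520 genes tested had such a p. Over the 60 fruit tests 0 were called by edgeR, 3 had an unadjusted p under 0.05, and DESeq2 called 1. Of these 3, FKF1 and GI 1 were at 96 h, where 3432 of 18438 genes tested had an unadjusted p under 0.05. PRR5 (−0.36 ± 0.16) was at 0 h, before any FR was given (247 of 18185 genes tested). No share over all genes is given here for DESeq2. The background was low as well in edgeR's test. In leaves, in order of time, 0.0%, 0.365%, 0.00548%, 0.188%, 0.0795% and 0.263% of all genes were called. In fruits the share was 0.0% at each time up to 48 h and 0.0434% at 96 h. Read against these shares, a count of 0 among 10 genes is no result about the clock genes. The shares hold for edgeR's test only and do not measure how far FR changed either organ. The paper called genes with DESeq2 and reported many more of them in fruits at the last time sampled. It also described the response of leaves as strong and lasting. In the DESeq2 run made here (Wald test), PRR5 and EID1 were called in leaves at 48 h and FKF1 in fruits at 96 h. The precision differed between organs: the 95% interval of the Log2FC lay between −1 and 1 in 60 of 60 fruit tests and in 39 of the 50 leaf tests at times other than 12 h.

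At 12 h in leaves the 1 library set the estimates. With it LHY was at −4.47 ± 2.04, PRR9 at −3.76 and LNK2 at −1.31 (Leaf FR against No FR, log2 scale), and without it at 0.34 ± 0.31, 0.21 and 0.06, with 0 of 10 genes called either way (0.0166% of all genes without it; unadjusted p under 0.05 for 0 of 10 with it and 0 of 10 without it). Without it the estimates of the 10 genes ran from −0.32 (PRR5) to 0.34 (LHY), and their 95% intervals from −0.76 to 0.96. After 6 h of FR they ran from −0.45 (PRR9) to 0.04 (EID1). LHY was at −0.02 ± 0.17, GI 1 at 0.01 ± 0.13 and FKF1 at −0.15 ± 0.22.

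The light differences with an unadjusted p under 0.05 in leaves were those of PRR5, GI 1, EID1 and FKF1 in the mornings after FR had started, all higher under Leaf FR. PRR5 at 48 h was at 1.53, 2.54, 1.65 and 1.62 CPM in No FR and 5.47, 3.19, 3.65 and 6.01 CPM under Leaf FR. All 4 Leaf FR libraries lay above all 4 of No FR. The difference missed the threshold over all genes (Log2FC 1.31 ± 0.30, adjusted p = 0.334 by edgeR's quasi-likelihood test), whereas DESeq2's Wald test gave an adjusted p of 0.0121. At 96 h it was at 2.34, 1.92, 2.78 and 1.79 CPM in No FR and 4.31, 5.04, 2.62 and 4.16 CPM under Leaf FR, with 1 Leaf FR library among the No FR values (Log2FC 0.86 ± 0.26, adjusted p = 0.285). Before FR the same difference was −0.13 ± 0.32, and after 24 h 0.61 ± 0.41. PRR5 was lowest in the morning, and these differences are of a few CPM.

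EID1 after 48 h was at 39.3, 42.6, 47.7 and 41.8 CPM in No FR leaves and 57.3, 63.0, 55.3 and 60.3 CPM under Leaf FR. After 96 h it was at 48.7, 41.9, 40.6 and 39.3 CPM in No FR and 58.5, 50.1, 49.9 and 57.1 CPM under Leaf FR. The treatments did not overlap on either day. The Log2FC of EID1 was 0.45 ± 0.11 after 48 h (adjusted p = 0.378 by edgeR and 0.0158 by DESeq2) and 0.34 ± 0.11 after 96 h (adjusted p = 0.298), beside 0.05 ± 0.12 before FR. For GI 1 the Log2FC was −0.31 before FR and 0.49, 0.78 and 0.56 on the mornings of 24, 48 and 96 h. For FKF1 these values were −0.54, 0.99, 0.53 and 0.27. None of them passed the threshold (adjusted p of 0.373 or more). FKF1 on the morning of 24 h was at 1.85, 0.613, 1.33 and 1.92 CPM in No FR and 2.54, 3.82, 2.94 and 2.22 CPM under Leaf FR, again without overlap. For LHY the Log2FC on these mornings was −0.05, 0.16 and 0.07. At 48 h 9 of the 10 estimates were above 0, with a median of 0.45 beside 0.02 over all genes tested, and at 96 h 9 of 10, with a median of 0.20 beside 0.02. The 10 estimates share libraries and are not independent, and no share of all genes above 0 is given. Replicate 1 of Leaf FR at 48 h was the highest of its group for LHY, PRR9, TOC1-like 2, GI 1, GI 2, FKF1 and LNK2. It was not the highest for PRR5, TOC1-like 1 or EID1.

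Counted by overlap alone, the 4 libraries of one treatment lay all above or all below those of the other for 1 of 10 genes in leaves at 24 h (FKF1, higher under Leaf FR; 3.84% of all genes were separated in either direction), 2 at 48 h (PRR5 and EID1, both higher; 5.62%) and 1 at 96 h (EID1, higher; 6.93%). None was separated at 0 h (2.04%) or 6 h (5.13%). At 12 h the count was 0 with all libraries (2.87%) and 2 without the doubted one (5.81%), FKF1, lower under Leaf FR, and EID1, higher. In fruits GI 1 was separated at 0 h (higher, before any FR was given; 1.23%) and TOC1-like 1 and FKF1 at 96 h (both lower; 11.2%). The count was 0 at 6 h (1.86%), 12 h (1.75%), 24 h (2.64%) and 48 h (4.59%).

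FKF1 at 96 h had the lowest p of the light tests in fruits. It was at 11.2, 10.8, 12.8 and 11.1 CPM in No FR fruits and 7.88, 9.31, 7.25 and 8.06 CPM in those of Leaf FR plants, without overlap (Log2FC −0.51 ± 0.11, adjusted p = 0.0754 by edgeR). DESeq2's Wald test gave an adjusted p of 0.00503, 1 fit over all fruit groups 0.0220, and edgeR without Leaf FR replicate 2 gave 0.0226 (Log2FC −0.57). At 0 h the difference was −0.10 ± 0.12. GI 1 stood at −0.29 ± 0.12 at 96 h (adjusted p = 0.256). The estimates of the 10 genes in fruits ran from −0.51 to 0.02 at 96 h, with 9 of 10 below 0 and a median of −0.19 beside −0.02 over all genes tested. These estimates share libraries as well and are not independent.

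**Figure D5:**
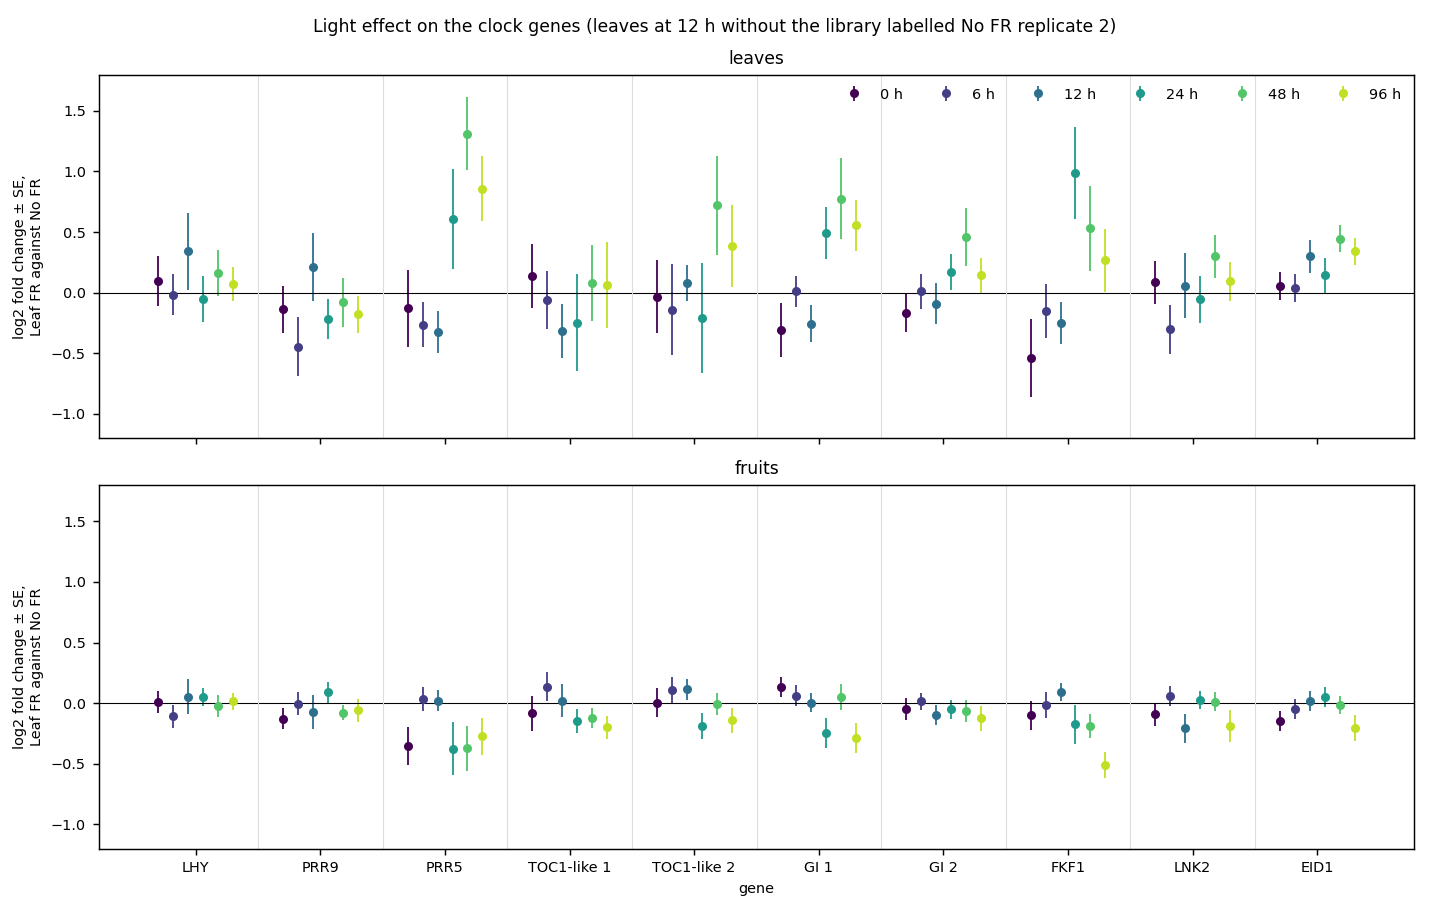
Log2 fold changes of Leaf FR against No FR with their standard errors for each clock gene at 6 times, in leaves (top, 12 h without the library labelled No FR replicate 2) and fruits (bottom). None passed the threshold in edgeR's test. The highest leaf value is PRR5 at 48 h (1.31) and the lowest fruit value FKF1 at 96 h (−0.51).

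Whether FR altered the daily change was tested as an interaction of light and time. In leaves 0 of 30 tests were called over the 3 steps of the first day (0.0161% of all genes for morning to afternoon and 0.0% for each later step). At an unadjusted p under 0.05 there were 0, 1 and 2 of 10 in the 3 steps. Beside them stood 1080 of 18625, 853 of 18832 and 405 of 18688 genes tested. DESeq2 called 0 of the 30. Without the library 0 of 20 were called in the later 2 steps (0.0% of all genes in each), with an unadjusted p under 0.05 for 0 genes from 6 to 12 h and 2 from 12 to 24 h. These were FKF1 (1.26 ± 0.39, 0.86 with the library) and GI 1 (0.78 ± 0.27, 0.40 with it). How many of all genes had such a p without the library is not given. That library was doubted in part by the levels of these same genes. In fruits 0 of 30 were called as well (0.0% of all genes in each step), and 0 by DESeq2. An unadjusted p under 0.05 was met by 1, 0 and 1 of 10 in the 3 steps. Beside them stood 607 of 18600, 1026 of 18677 and 769 of 18679 genes tested. From morning to afternoon the difference of the Log2FC between treatments in leaves ran from −0.41 (LNK2) to 0.36 (FKF1), with 95% intervals between −1.12 and 1.05, beside changes of up to 7.83 within a treatment. In fruits it ran from −0.12 (LHY) to 0.39 (PRR5), with intervals between −0.35 and 0.71. The steps around 12 h in leaves again depended on the library. LHY from 6 to 12 h was at −4.43 with it and 0.37 without it, and from 12 to 24 h at 4.44 and −0.36.

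The same clock time 4 days apart was compared within each treatment (96 h against 0 h). FKF1 rose in 3 of the 4 sets of samples, GI 1 and GI 2 in 2, and TOC1-like 2 and PRR9 in 1. In No FR fruits 3 of 10 genes rose (8.64% of all genes were called): FKF1, from 6.46, 5.97, 7.38 and 6.18 to 11.2, 10.8, 12.8 and 11.1 CPM (Log2FC 0.82 ± 0.11, adjusted p = 0.00261), GI 1 (0.50 ± 0.08, 0.00617) and GI 2 (0.38 ± 0.09, 0.034). The call of GI 2 was lost without any 1 of the 4 libraries of 0 h or replicate 3 or 4 of 96 h (adjusted p 0.0529 to 0.111), and TOC1-like 2 passed without replicate 1 of 0 h (0.0405). In leaves under Leaf FR 3 of 10 rose (9.49% of all genes): FKF1, from 1.17, 1.66, 1.25 and 1.03 to 3.45, 3.31, 4.04 and 2.83 CPM (Log2FC 1.40 ± 0.28, adjusted p = 0.0233), GI 1, from 9.39, 12.6, 12.9 and 7.5 to 21.3, 30.1, 19.0 and 25.4 CPM (1.16 ± 0.21, 0.02), and GI 2 (0.75 ± 0.16, 0.027). All 3 calls depended on single libraries. That of GI 1 was lost without replicate 1 of 0 h (0.0593), that of GI 2 without any 1 library of 0 h (0.0526 to 0.0701), and that of FKF1 without replicate 1, 3 or 4 of 0 h or replicate 1 or 3 of 96 h (0.0502 to 0.0607).

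In No FR leaves 0 of 10 were called (0.0% of all genes), and 0 by DESeq2. An unadjusted p under 0.05 was met by 1 of 10, beside 2985 of 17492 genes tested. FKF1 was at 0.61 ± 0.31, GI 1 at 0.32 ± 0.22 and GI 2 at 0.46 ± 0.16. In fruits of Leaf FR plants 3 of 10 rose slightly (14.9% of all genes), FKF1 (0.41), TOC1-like 2 (0.32) and PRR9 (0.27). Each of these 3 was lost without any of several single libraries (6, 7 and 6 of 8; adjusted p up to 0.110, 0.118 and 0.0995), and GI 2 passed without replicate 3 of 0 h (0.0283). The difference between treatments in this 4-day change was a comparison added after the values had been seen. It was called for 0 of 10 genes in leaves (0.0661% of all genes) and 0 of 10 in fruits (0.0%). DESeq2 called 0 in each. An unadjusted p under 0.05 was met by 2 of 10 in leaves (1113 of 18159 genes tested) and 2 of 10 in fruits (1661 of 18768). The difference stood at 0.86 ± 0.32 for GI 1 and 0.99 ± 0.40 for PRR5 in leaves, and at −0.41 ± 0.15 for GI 1 and −0.40 ± 0.15 for FKF1 in fruits. LHY, not called in any of these comparisons, was at 433 to 762 CPM (median 599) over the 16 morning libraries of No FR leaves and 472 to 785 CPM (median 632) over the 16 of Leaf FR. In fruits it was at 113 to 152 CPM (median 136) in No FR and 115 to 158 CPM (median 139) in Leaf FR plants.

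Correlations between the genes were taken over 46 leaf libraries, without the doubted one. Pearson's r of log2 CPM was 0.98 between LHY and LNK2 and 0.98 between GI 1 and FKF1, −0.96 between LHY and FKF1, and 0.32 between PRR5 and TOC1-like 2, and each had the same value over all 47. Genes that were highest at the same time did not always follow each other. Between PRR9 and EID1, both highest in the morning, r was 0.64 (0.64 over all 47). Between TOC1-like 1 and GI 2 it was 0.55 (0.56 over all 47). GI 2 peaked in the afternoon, whereas TOC1-like 1 had similar means in afternoon and evening leaves of No FR. They were 23.8 CPM and, without the doubted library, 23.2 CPM. In the 48 fruit libraries r was 0.93 between LHY and LNK2, 0.98 between GI 1 and FKF1, and −0.96 between LHY and FKF1. It was 0.68 between PRR5 and TOC1-like 2, 0.39 between PRR9 and EID1, and 0.58 between TOC1-like 1 and GI 2. For the TOC1-like genes r was 0.34 in each organ. For EID1 and LHY it was 0.88 in leaves and 0.51 in fruits. These values describe libraries that share their clock times and treatments, and carry no test.

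Among 14309 other genes with a mean of at least 5 CPM, the gene most like each clock gene over the 95 libraries was sought by Pearson's r of log2 CPM. It was Solyc05g052950 for LHY (r = 0.971), Solyc01g105120 for both PRR9 (0.977) and LNK2 (0.984) and Solyc06g006000 for both GI 1 (0.932) and FKF1 (0.97). It was Solyc04g050620 for PRR5 (0.934), Solyc01g108910 for GI 2 (0.931), Solyc11g064920 for TOC1-like 1 (0.908), Solyc07g045180 for TOC1-like 2 (0.852) and Solyc06g073320 for EID1 (0.976). Without the doubted library these values of r ran from 0.852 to 0.984. They run over both organs and all clock times at once, and no name was attached to these IDs here.

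Of 13 further gene IDs, listed as likely clock genes but not annotated in the tables used here and therefore left unnamed, many also changed through the day. In No FR leaves 12 of 13 were called from morning to afternoon (5 up, 7 down; 25.5% of all genes), and in those under Leaf FR 11 (5 up, 6 down; 35.7%). In No FR fruits 9 of the 12 tested were called (4 up, 5 down; 4.67% of all genes) and under Leaf FR 9 of 13 (5 up, 4 down; 6.02%). Their median Log2FC in No FR leaves was −0.42 beside 0.06 over all genes. Between Leaf FR and No FR edgeR called 0 of them at any time in either organ, beside 0.0% to 0.365% of all genes. Chosen after their values were seen, Solyc05g007880 had a mean of 124 CPM at 0 h and 2.43 CPM at 6 h in No FR leaves, and Solyc06g051680 had 0.0232 and 9.88 CPM.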

How the data were processed

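RNA of 47 leaf and 48 fruit samples was sequenced by the authors (DNBSEQ, paired ends). Reads were filtered (SOAPnuke) and aligned to ITAG4.0 (Bowtie2), and the counts of each gene were estimated with RSEM. The expected counts deposited by the authors are whole numbers and were used without rounding. Their table of normalised counts was not used. RSEM divides reads shared by similar genes, which can touch the gene pairs.

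Leaf FR (labelled FR) was compared with No FR (labelled NFR), times and organs were compared, and differences of differences were fitted as interactions, with edgeR 4.0.16 (quasi-likelihood test, limma 3.58.1, R 4.3.3), TMM scaling, a minimum of 10 counts in 3 or more libraries of the fit, Benjamini-Hochberg adjustment over all genes tested and a threshold of 0.05. Only the compared libraries entered a fit. Intervals are Log2FC ± 1.96 SE, which is narrower than the quasi-likelihood test with few libraries implies. For LHY in leaves at 12 h, Leaf FR against No FR with all libraries, the interval was −8.47 to −0.47. The unadjusted p of edgeR's quasi-likelihood test was 0.0619 there. Levels are CPM after TMM scaling over the 95 libraries. The scripts were first tested on simulated data. Totals of 14769415 to 17957406 counts per library set the precision of low levels.

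The rule for genes named was the 10 clock genes and the 1 gene most like each. The members and lists were chosen with earlier results of these data known. Alternatives were DESeq2 1.42.0 (Wald test), its size factors in edgeR, no filter, 1 fit over all groups, the replicate number as a block and each library left out. The light difference of the 4-day change and the doubt about 1 library came after seeing the data. Between treatments or times, a shared replicate number named separate plants. Whether leaf and fruit libraries with the same number came from the same plant is not stated. No sequence is shown, since the reference table used here (assembly SLM_r2.1) carries other gene IDs.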

Additional observations from a re-analysis of the deposited data

Results flagged for a closer look

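In the library labelled leaf, No FR, 12 h, replicate 2, 6 of the 10 genes stood apart from the other 3 libraries of its group by Dixon's test: LHY (669.8 CPM against 4.05 to 8.49), PRR9 (144 against 1.78 to 2.85), LNK2 (150.4 against 13.7 to 26.9), PRR5 (1.53 against 12.4 to 14.6), TOC1-like 2 (9.66 against 139 to 149) and FKF1 (1.29 against 60.3 to 69.5). Among the other 220 groups of 4 examined, 11 values stood apart, and chance alone marks about 1 in 20 groups. In leaves these were PRR9 under Leaf FR at 48 h (212.9 CPM against 144 to 148), PRR5 under Leaf FR at 24 h (5.28 against 2.22 to 2.39) and in No FR at 48 h (2.54 against 1.53 to 1.65), TOC1-like 1 under Leaf FR at 96 h (25.7 against 9.34 to 10.5), TOC1-like 2 in No FR at 24 h (3.39 against 11.03 to 12.3), GI 2 in No FR at 0 h (71.0 against 49.0 to 51.1) and EID1 under Leaf FR at 24 h (71.3 against 50.5 to 53.9). In fruits they were PRR5 in No FR at 48 h (5.58 CPM against 3.35 to 3.57), TOC1-like 1 (8.34 against 7.63 to 7.70) and GI 2 (37.3 against 33.3 to 33.8) of Leaf FR plants at 48 h, and EID1 of Leaf FR plants at 12 h (17.6 against 15.8 to 15.9).

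The daily change differed between organs of No FR plants (fruits minus leaves, log2 scale). From 0 to 6 h the difference was 2.65 for LHY, 1.26 for PRR9, 1.43 for LNK2 and 0.80 for EID1, and −2.69 for PRR5, −1.70 for GI 1, −1.05 for GI 2 and −3.54 for FKF1. From 6 to 12 h it was 1.41 for GI 2, with the doubted library in the fit.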

How the results depend on the processing

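With DESeq2's Wald test, 2 of 60 light tests in leaves and 1 of 60 in fruits were called in place of 0, and 19 of 40 tests over time in No FR leaves in place of 11. With 1 fit over all groups these counts were 2 (LHY and PRR9 at 12 h, which rest on the doubted library), 1 and 23, and the change through the day differed between organs in 20 of 30 tests in place of 9. DESeq2's size factors in edgeR and no filter on low counts left every such count within 1.5 times its first value. Shares of all genes called are not given for these alternatives, so that their counts have no background beside them.

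Leaving out each library in turn gave 0 calls of the light effect in leaves and 0 to 1 in fruits, 9 to 24 of the changes over time in No FR leaves, 24 to 28 in leaves under Leaf FR, 25 to 26 in No FR fruits, 23 to 27 in fruits of Leaf FR plants, 0 for light by time of day in each organ and for light by day in each, 9 to 20 for organ by time of day and 18 to 22 for the organ difference. The highest counts in No FR leaves (24) and for organ by time of day (20) came without the library labelled No FR, 12 h, replicate 2. Some estimates turned their sign as single libraries were left out, with one end of each range without that library. For LHY the ranges were −0.13 to 5.04 (6 to 12 h, No FR leaves), −4.86 to 0.34 (light, leaves, 12 h), −4.83 to 0.37 and −0.36 to 4.84 (light difference of the evening and night steps in leaves) and −2.03 to 3.19 (organ difference of the night step). For PRR9 they were, in that order, −3.55 to 0.80, −4.15 to 0.21, −3.68 to 0.68, −0.39 to 3.98 and −2.97 to 1.40, with −2.76 to 1.64 for the organ difference of the evening step and −4.02 to 0.39 between organs at 12 h. For LNK2 they were −1.62 to 0.055 (light, leaves, 12 h), −0.082 to 1.56 (light difference of the night step) and −1.58 to 0.12 (organ difference of the night step, above 0 without replicate 1 or 3 of leaves at 12 h: 0.12 and 0.052). Of 190 single values, 121 were called with all libraries.

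With the replicate number as a block, the counts were 0 for the light effect in each organ, 9, 25, 21 and 23 for the changes over time (No FR and Leaf FR leaves, then fruits), 0 for light by time of day and by day in each organ, 9 for organ by time of day and 18 for the organ difference, and 16 single calls were lost. Under the block PRR9 turned its sign from 6 to 12 h in No FR leaves (−2.53) and in the organ difference of the night step (−0.50). Same-numbered libraries did not deviate together in every pair in any of 31 comparisons (correlations of pairs from −0.69 to 0.68). These correlations cannot show whether a shared number marks leaf and fruit libraries of the same plant.

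Levels near 1 CPM, as of FKF1 in morning leaves, rest on few reads, and light differences in leaves had wider intervals than those in fruits.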
